A study of Homo sapiens with 12 samples.

Results

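The comparison described here is the interaction of glucose and valproic acid (VPA) in HepG2, an established human liver cancer cell line. For each gene it is the log2 response to VPA in high-glucose medium minus the log2 response in low-glucose medium, (HGV - HG) - (LGV - LG), and it was computed for all 16389 genes of the count table from all 12 libraries of the series. LG cells were kept in 5.5 mM glucose and HG cells in 20 mM glucose for 48 h. LGV and HGV cells received 1 mM VPA for 12 h in the same media. Each group had 3 libraries of poly(A) RNA, and 29798442 to 45572694 reads were counted per library.

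A positive interaction means that VPA raised a gene more, or lowered it less, in HG than in LG. The same number is also the glucose response with VPA minus the glucose response without it. VPA inhibits zinc-dependent histone deacetylases, so acetyl groups stay on histones for longer and many silent genes become transcribed. The liver takes up glucose, stores it, and secretes most complement and clotting proteins, and HepG2 cells keep many of these functions.

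The labels name no separate cultures, so the p-values measure the spread between these samples, which may be technical. When untreated cells were collected, at the start or the end of the 12 h with VPA, is not given in the sources used here, so VPA and culture time cannot be told apart. In bulk RNA, fewer cells of a type and less RNA per cell cannot be told apart either. Hepatocyte markers were present in all libraries, with ALB at 18900 to 29400 CPM (read counts scaled to the TMM-adjusted library size). Of 10 markers of blood, endothelium, stroma and bile duct, 4 were in the table: CD14, VWF and COL1A1 at 0.125 to 4.73 CPM and KRT19 at 63.8 to 211 CPM. PTPRC, CD68, CD3E, PECAM1, COL3A1 and KRT7 were not in it. The median SD of log2 CPM within a group was 0.216 in LG, 0.171 in LGV, 0.162 in HG and 0.185 in HGV.

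VPA changed many genes in both media, and few of them were shown to respond differently. An FDR of 0.05 or less in edgeR's quasi-likelihood test was reached by 7214 genes in LG (44%; 3685 higher, 3529 lower) and by 7188 genes in HG (43.9%; 4047 higher, 3141 lower). For the interaction it was reached by 7 of 16389 genes (0.0427%), 4 positive (0.0244%) and 3 negative (0.0183%). At an unadjusted p under 0.05, 1852 genes passed (11.3%), 1197 positive (7.3%) and 655 negative (4%). Over all genes, 8894 had a positive value (54.3%). These splits depended on the scaling: with library size in place of TMM factors, 825 were positive and 875 negative at p under 0.05, and 48% of all genes were positive. The calls for VPA were then 4923 higher and 2260 lower in LG and 4895 higher and 2267 lower in HG, and the median VPA response of all genes was 0.16 and 0.15, against -0.01 and 0.03 with TMM factors.

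The size of the interaction was limited from both sides for most genes. Its median was 0.04 on the log2 scale, its SD over genes 0.47 and its median standard error 0.24. The 95% interval lay within 1 log2 unit of 0 for 10629 genes (64.9%), and it could not be given for 26 genes with no reads in a group. The count of 7 moved with the test. DESeq2's Wald test called 162 genes, edgeR's likelihood ratio test 202, limma voom 1 and voom with library weights 907. Leaving out single libraries gave between 1 gene (without any one of LG 1, LGV 2, LGV 3, HG 1, HG 3 or the HGV libraries) and 220 genes (without LG 2). RNF125 passed in each of these fits.

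**Figure D1:**
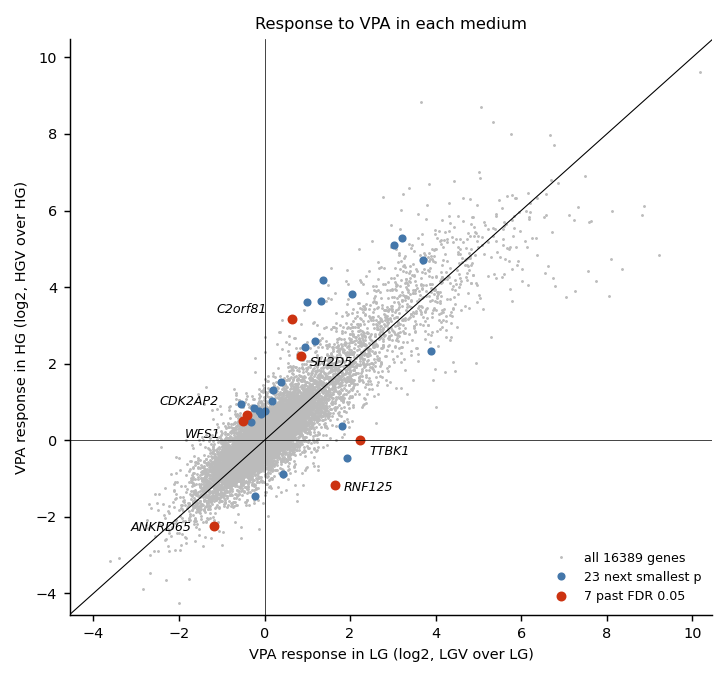
Response to VPA (log2) in LG on the x axis and in HG on the y axis, one point per gene, with the line of equal response. The 7 genes with an interaction FDR of 0.05 or less are red and named, and the 23 genes with the next smallest p are blue. Of the red points, WFS1 and CDK2AP2 lie left of 0 on the x axis and above 0 on the y axis, and RNF125 lies right of 0 and below it.

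Genes that rose with VPA in LG had similar responses in HG. The 3685 genes higher in LGV than in LG had a median response of 1.06 there and 0.99 in HG, and 3610 of them (98%) had the same sign in HG. The 3529 genes lower in LGV had medians of -0.68 in LG and -0.55 in HG. Across all genes the responses in the separate media had a Pearson's r of 0.907, a description over genes, which share their libraries. VPA responses past the threshold in both media with opposite signs were found for 13 genes (0.0793%), 9 lower in LG and higher in HG and 4 the other way. With upper quartile factors 6 of the 13 kept both calls, and with library size alone 3 (RNF125, WFS1 and ZNF114).

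Read as glucose responses, 4236 genes passed between HG and LG (25.8%; 1890 higher, 2346 lower) and 6498 between HGV and LGV (39.6%; 3522 higher, 2976 lower). The 3522 genes higher with glucose under VPA had a median of 0.82 there and of 0.48 without VPA, and they were chosen on the contrast with VPA. The 1890 genes higher without VPA had medians of 0.80 without it and 0.77 with it. Opposite glucose responses, past the threshold both times, were found for 18 genes (0.11%), of which 13 were lower without VPA and higher with it. With upper quartile factors or library size alone 6 of the 18 kept both calls, without LGV 2 there were 5, and without HG 3 there were 3. Scaling also moved the split of the glucose calls: with upper quartile factors 2607 genes were higher and 1562 lower without VPA, and 4141 higher and 2322 lower with it.

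RNF125 (ENSG00000101695) encodes a ubiquitin ligase that restrains RIG-I antiviral signalling. It lies on chromosome 18 of GRCh37 from 29598788 to 29653182, and an unnamed gene overlaps its exons on the same strand. It had 0.86, 1.25 and 1.2 CPM in the LG libraries and 3.27, 3.67 and 3.55 CPM in LGV. In HG it had 3.42, 6.61 and 5.29 CPM, and in HGV 2.45, 2.40 and 1.94 CPM. The treated and untreated libraries did not overlap in either medium, and the order was opposite: VPA raised RNF125 by 1.64 on the log2 scale in LG and the log2 response in HG was -1.17. The interaction was -2.82 (SE 0.34, FDR 0.0012). Glucose raised it by 2.19 without VPA, and with VPA the glucose response was -0.62. The interaction stayed past the threshold in all 12 fits that each left out 1 library (-3.08 to -2.61).

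WFS1 (ENSG00000109501) encodes wolframin, a membrane protein of the endoplasmic reticulum whose loss causes a syndrome with diabetes. It lies on chromosome 4 from 6271576 to 6304992, and an unnamed gene overlaps its exons on the other strand. It had 198, 169 and 147 CPM in LG, 114, 116 and 130 CPM in LGV, 65.0, 78.1 and 73.9 CPM in HG, and 104, 102 and 99.5 CPM in HGV. VPA libraries were lower than untreated ones in LG and higher in HG, with no overlap in either medium. The responses were -0.51 in LG (FDR 0.0015) and 0.49 in HG (FDR 0.0021), and the interaction was 1.01 (SE 0.17, FDR 0.037). Glucose lowered WFS1 without VPA, with a log2 response of -1.24. With VPA it was -0.23 and did not pass (FDR 0.125).

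CDK2AP2 (ENSG00000167797, chromosome 11 from 67273968 to 67276120) encodes a partner protein of the cyclin-dependent kinase CDK2. It had 81, 65.6 and 55.0 CPM in LG, 53.2, 47.8 and 49.3 CPM in LGV, 20.9, 23.4 and 23.2 CPM in HG, and 36.5, 36.2 and 33.0 CPM in HGV. As for WFS1, the order of treated and untreated libraries was opposite in the separate media, without overlap. The responses to VPA were -0.42 in LG and 0.65 in HG, a difference of 1.07 (SE 0.18, FDR 0.037). Glucose lowered CDK2AP2 both without VPA (-1.58) and with it (-0.51).

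SH2D5 and C2orf81 rose with VPA more in HG. SH2D5 (ENSG00000189410), an adaptor protein with an SH2 domain, lies on chromosome 1 from 21046224 to 21059330. It had 13.1, 10.8 and 9.01 CPM in LG, 21.5, 16.6 and 20.5 CPM in LGV, 3.99, 5.41 and 4.68 CPM in HG, and 19.6, 24.0 and 21.7 CPM in HGV. The HG libraries were the lowest of the 12, whereas the LGV and HGV libraries overlapped. VPA raised SH2D5 by 0.84 in LG and by 2.21 in HG, and the interaction was 1.37 (SE 0.23, FDR 0.037). C2orf81 (ENSG00000159239, chromosome 2 from 74620963 to 74648789) had 0.638 to 1.32 CPM in LG, 1.36 to 1.65 in LGV, 0.222 to 0.299 in HG and 2.06 to 2.48 in HGV. Its HG libraries were also the lowest. Its interaction was 2.52 (SE 0.44, FDR 0.037), with VPA responses of 0.65 in LG (FDR 0.0594) and 3.17 in HG. Its exons overlap those of other genes on both strands, and the counting is not stated to use strand.

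TTBK1 and ANKRD65 had negative interactions. TTBK1 (ENSG00000146216), a kinase of tau and tubulin known from neurons, lies on chromosome 6 from 43211219 to 43255996. It had 0.449, 0.324 and 0.357 CPM in LG, 1.59, 2.11 and 1.57 CPM in LGV, 1.90, 3.02 and 1.96 CPM in HG, and 1.84, 2.38 and 2.65 CPM in HGV. The 3 LG libraries lay below the other 9, which overlapped. VPA raised it by 2.23 in LG and its response in HG was 0.00 (FDR 0.995), an interaction of -2.23 (SE 0.40, FDR 0.0383). ANKRD65 (ENSG00000235098, chromosome 1 from 1353800 to 1357149), whose exons overlap an antisense gene, had 17 to 18.6 CPM in LG, 7.08 to 8.54 in LGV, 24.0 to 26.7 in HG and 5.18 to 5.52 in HGV. None of the groups overlapped. VPA lowered it in both media, with responses of -1.18 and -2.24, and the interaction was -1.06 (SE 0.19, FDR 0.0452).

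**Figure D2:**
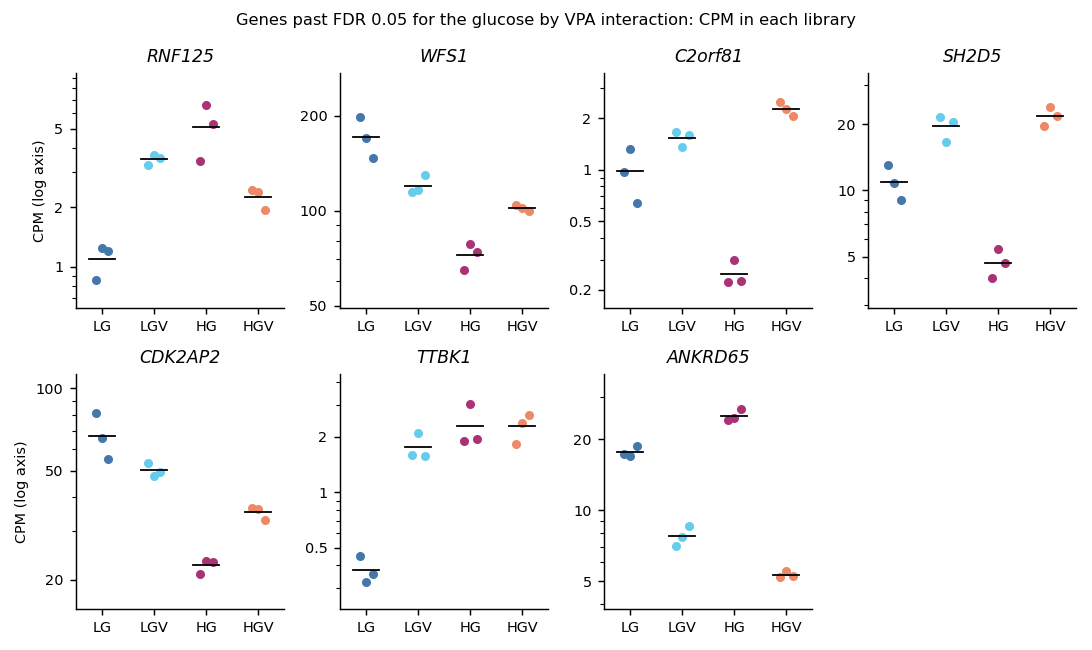
CPM on a log axis of the 7 genes past the FDR threshold, one point per library and a bar at each group's mean (n = 3). RNF125, WFS1 and CDK2AP2 show opposite orders of treated and untreated libraries in LG and HG, and the LG libraries of TTBK1 lie below the other 9.

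The 23 genes with the next smallest p had FDRs from 0.06 to 0.0627, above the threshold, and 18 of them were positive. They included NDRG4, SPNS2, NKD1, SDF2L1, DLGAP1-AS2, DNAJB5, CDYL2, ATP1B2, SPTAN1, TUBA4A, CCDC40, PCDHB16, HID1, SLC25A4, TRIM54, C17orf96, EFNB2, KCNH3, EREG, CCDC24, LRCH4 and MN1. In all 30 genes the interaction had the same sign on the linear CPM scale. NKD1, an inhibitor of Wnt signalling, had 312 to 394 CPM in LG and 289 to 349 in LGV, which overlap, against 202 to 218 in HG and 320 to 381 in HGV, which do not. SPTAN1, a spectrin of the membrane skeleton, fell with VPA in LG (-0.32, FDR 0.028) and rose in HG (0.47, FDR 0.0019). SLC25A4, the adenine nucleotide translocator of mitochondria, rose by 0.75 in HG, whereas its LG response was 0.00 (FDR 0.988). EREG, a ligand of the EGF receptor, rose by 1.92 in LG (FDR 0.000138), and its HG response was -0.45 (FDR 0.321).

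The 10 genes with opposite VPA responses besides RNF125, WFS1 and CDK2AP2 were SPTAN1, GMPPA, IDH2, FOCAD, HAMP, MT1G and RP11-755B10.4, lower in LG and higher in HG, and TRIM31, ZNF114 and MOK, higher in LG and lower in HG. Their interactions ran from -1.68 (TRIM31) to 2.75 (HAMP) and had FDRs from 0.0627 to 0.133. Across the 12 fits without 1 library, the opposite calls held 12 times for RNF125 and WFS1, 11 times for CDK2AP2, 9 times for TRIM31, 8 times for SPTAN1 and ZNF114, and between 0 (FOCAD) and 6 times for the others. With library size alone the opposite calls of CDK2AP2, TRIM31 and SPTAN1 were lost, that of SPTAN1 also with upper quartile factors. The exons of SPTAN1, TRIM31, ZNF114 and MOK overlap those of genes on the other strand. So do those of NKD1, TUBA4A, SPNS2, KCNH3, EFNB2, CCDC40, PCDHB16, TRIM54, CCDC24, HK1, SLC2A1, CALR, DNAJB11, FOXA1, IGF2 and H2AFY2. Reads of such pairs cannot be told apart without strand. The exons of DNAJB11, IGF2, PCDHB16, MT1X, C3 and LRCH4 overlap those of genes on the same strand, which strand would not separate.

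Among targets of BMP and TGF-beta signalling, values of both signs were found. Ligands of this family act through SMAD proteins, which in liver cells switch on ID1, ID3 and HAMP, the gene of the iron hormone hepcidin. Of 16 measured genes, 12 had a positive interaction, against 54.3% of all genes, with a median of 0.28 beside 0.04 over all genes. None had an FDR of 0.05 or less in edgeR's quasi-likelihood test or voom, whereas the likelihood ratio test called 5, DESeq2's Wald test 3 and voom with library weights 5. Without LG 2, the quasi-likelihood test called 5 as well. Over all 16389 genes the likelihood ratio test called 202, DESeq2's test 162, voom with library weights 907 and the fit without LG 2 220. At p under 0.05, 5 were positive and 2 negative, against 7.3% and 4% of all genes.

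HAMP (chromosome 19 from 35771619 to 35776046) had 0.748, 0.449 and 4.16 CPM in LG, 1.08, 0.422 and 0.374 CPM in LGV, 5.17, 8.55 and 7.17 CPM in HG, and 17.9, 19.5 and 10.6 CPM in HGV. LG 3 stood apart from the other LG libraries. The interaction was 2.75 (SE 0.75, FDR 0.132), and without LG 3 it was 1.09 (FDR 0.492). The fall with VPA in LG (-1.55, FDR 0.0394) also rested on LG 3, without which it was 0.11 (FDR 0.885). The glucose response of HAMP was 1.93 without VPA and 4.68 with it, both past the threshold, and without LG 3 the first was 3.58.

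ID1 and ID3 encode inhibitors of basic helix-loop-helix factors. ID1 had 46.7, 34.8 and 121 CPM in LG, 51.9, 34.2 and 48.3 in LGV, 106, 127 and 133 in HG, and 243, 281 and 238 in HGV. LG 3 was again the high library of its group, and the HGV libraries lay above all others. The interaction of ID1 was 1.64 (FDR 0.0983), and 0.91 without LG 3 (FDR 0.0781). ID3 had 12.5 to 28.8 CPM in LG, 14.3 to 21.1 in LGV, 17.6 to 23.7 in HG and 50.3 to 62.3 in HGV. Its response to VPA was 1.36 in HG (FDR 4.64e-05) and -0.02 in LG (FDR 0.949), an interaction of 1.38 (FDR 0.0754). The interaction of ID3 was 0.94 to 1.59 in the fits without 1 library (highest FDR 0.285).

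FST, the activin antagonist follistatin, had the opposite sign: it fell by 1.29 in LG, from 438 to 576 CPM to 186 to 221, and by 2.02 in HG, from 440 to 473 CPM to 111 to 116. Its interaction was -0.73 (FDR 0.0754).

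Metallothioneins are small cysteine-rich proteins that bind zinc and copper, and the factor MTF1 induces them through metal response elements. Their interactions had one sign: all 6 measured genes of 10 listed were positive, against 54.3% of all genes, with a median of 0.84. At p under 0.05, 4 were positive, against 7.3% of all genes. None had an FDR of 0.05 or less in edgeR's quasi-likelihood test or voom. The likelihood ratio test and DESeq2's Wald test each called 1 of the 6, and voom with library weights 2. Without LG 2, the quasi-likelihood test called 2. Over all genes the likelihood ratio test, DESeq2's test, voom with library weights and the fit without LG 2 called 202, 162, 907 and 220. The list as a whole, which adds MTF1 and zinc transporters, had 13 measured genes and a median of -0.04. Of these, 4 were positive and 1 negative at p under 0.05, against 7.3% and 4% of all genes.

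The promoters of MT1X and MT2A are shown as background, because the metal response element is the one metallothioneins are known for. Both are 250 bases that end at the start site, from RefSeq on GRCh38.p14, forward strand, chr16:56682220-56682469 and chr16:56608334-56608583. The table had no entry for the other 4 measured genes. Capitals mark matches on either strand to TGCGCNC or TGCACNC.
MT1X: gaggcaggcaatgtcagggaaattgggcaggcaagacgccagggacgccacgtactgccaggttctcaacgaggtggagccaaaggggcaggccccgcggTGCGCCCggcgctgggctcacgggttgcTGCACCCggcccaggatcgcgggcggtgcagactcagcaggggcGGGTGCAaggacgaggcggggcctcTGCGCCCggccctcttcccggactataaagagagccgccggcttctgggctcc
MT2A: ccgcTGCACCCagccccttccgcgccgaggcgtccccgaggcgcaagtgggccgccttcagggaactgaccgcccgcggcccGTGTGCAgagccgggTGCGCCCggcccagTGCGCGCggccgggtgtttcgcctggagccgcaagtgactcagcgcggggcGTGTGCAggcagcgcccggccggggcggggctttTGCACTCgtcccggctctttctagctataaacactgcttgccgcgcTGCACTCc
There were 4 matches in MT1X and 7 in MT2A. Of 35116 promoters of the same length, 24.8% held at least 1 match and 1.58% at least 3. A link between this element and the interactions was not tested.

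MT1X had 5.05, 3.32 and 6.46 CPM in LG, 5.91, 3.51 and 4.16 in LGV, 3.96, 3.08 and 3.98 in HG, and 6.81, 10.2 and 6.59 in HGV. LG and LGV overlapped, and HGV lay above HG in every library. The VPA response was -0.12 in LG (FDR 0.721) and 1.10 in HG (FDR 0.0011), an interaction of 1.23 (95% interval 0.50 to 1.96, FDR 0.159). MT1G had 8.64, 7.34 and 17.3 CPM in LG, 7.50, 5.33 and 7.82 in LGV, 5.2, 3.35 and 4.37 in HG, and 6.35, 7.80 and 6.76 in HGV. Its interaction of 1.39 (FDR 0.132) was 0.91 without LG 3, and its fall in LG (-0.69, FDR 0.0329) was -0.21 without it (FDR 0.465).

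MT1F and MT1E had interactions of 0.81 (FDR 0.227) and 0.85 (FDR 0.241), which were 0.56 and 0.49 without LG 3. MT1F rose by 1.11 with VPA in HG, from 4.49 to 6.69 CPM to 11 to 14.4 CPM, and glucose lowered it by 1.11 without VPA. MT1A had an interaction of 0.82 (95% interval -0.13 to 1.78), which was 0.49 without HG 1 and 0.54 without HGV 2. MT2A, the most abundant at 56.8 to 107 CPM over the 12 libraries, had one of 0.37 (95% interval -0.08 to 0.81), which was between 0.23 and 0.24 without LG 3, HG 1 or HGV 2.

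**Figure D3:**
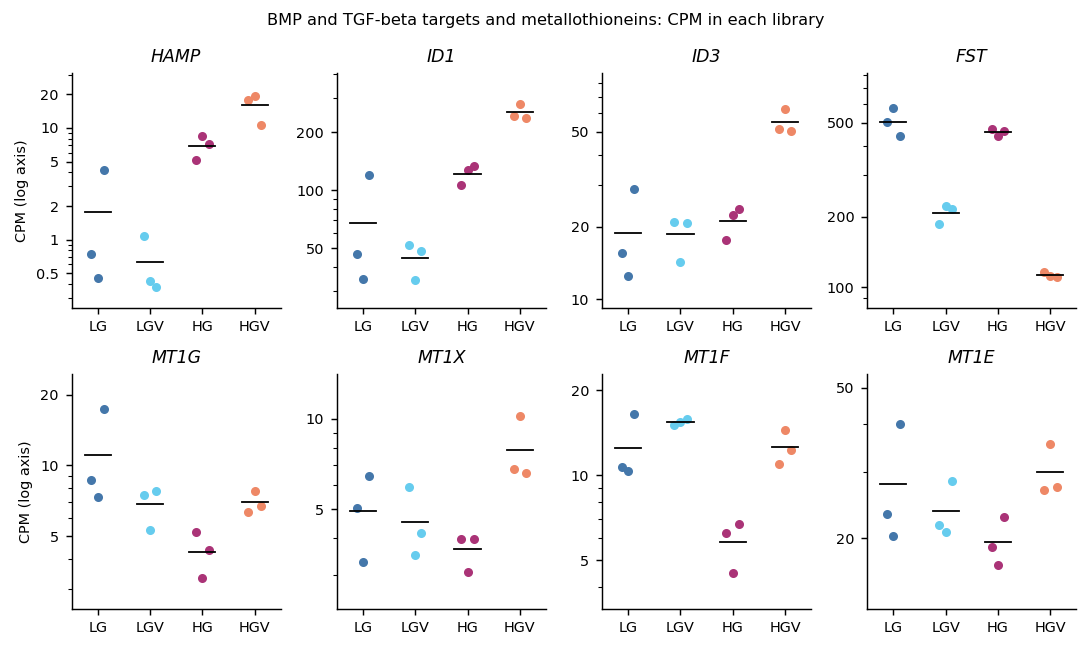
CPM on a log axis of HAMP, ID1, ID3 and FST and of 4 metallothioneins, one point per library in the order of the replicate numbers and a bar at each group's mean (n = 3). The HGV libraries of HAMP, ID1 and ID3 lie above all other libraries and those of FST below them, and LG 3, the right-hand LG point, is the highest of its group in each panel except that of FST.

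Glucose transport and glycolysis genes had mostly positive interactions. Of 26 measured genes 23 were positive, against 54.3% of all genes, with a median of 0.36. At p under 0.05, 8 were positive and none negative, against 7.3% and 4% of all genes. These 8 became 4 without HG 3 or HGV 2, 5 without LG 1, LG 3, LGV 3, HG 1 or HGV 3, 12 without HGV 1 and 5 with library size alone, with none negative in these fits. The median VPA response of these genes was -0.18 in LG and 0.21 in HG, and the median glucose response was -0.27 without VPA and 0.07 with it. SLC2A8, an intracellular glucose transporter, had 50.8 to 68.2 CPM in LG, 37.1 to 43.7 in LGV, 36.2 to 42.6 in HG and 41.2 to 47.8 in HGV. VPA lowered it in LG (-0.57, FDR 0.0011) and its HG response was 0.22 (FDR 0.174), an interaction of 0.79 (FDR 0.0754). SLC2A1, the transporter GLUT1, had an interaction of 0.48 (FDR 0.272), and glucose lowered it by 1.23 without VPA and by 0.75 with VPA. HK1, a hexokinase, rose by 3.20 in LG and 3.86 in HG, from 5.85 to 6.64 CPM to 47.7 to 63.0 CPM and from 2.35 to 3.16 CPM to 36.3 to 45.6 CPM. Its interaction of 0.66 (FDR 0.217) was of opposite sign on the linear scale.

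DNA replication genes showed the highest list median of those with 10 or more measured genes, 0.42. Of 30 genes 27 were positive, against 54.3% of all genes. At p under 0.05, 11 were positive and none negative, against 7.3% and 4% of all genes. None reached an FDR of 0.05 in edgeR's quasi-likelihood test or in voom. The likelihood ratio test called 3, DESeq2's Wald test 1 and voom with library weights 4, against 202, 162 and 907 of all 16389 genes. Without LG 3, 21 were positive, and 6 positive and 1 negative had p under 0.05; the 11 also became 6 without HG 1 and 7 without LGV 2 or HGV 2. With library weights 19 were positive, and the list's median over all alternatives ran from 0.18 to 0.51. RRM2, a subunit of ribonucleotide reductase, had 15.5, 20.6 and 38.5 CPM in LG, 15.9, 14.1 and 19 in LGV, 29.8, 41.6 and 37.6 in HG, and 47.4, 53.9 and 53.6 in HGV. LG 3 overlapped the HG libraries, and the interaction of 1.12 (FDR 0.152) was 0.65 without LG 3. MCM4, part of the replicative helicase, fell by 0.55 in LG and had an HG response of 0.20 (FDR 0.247), an interaction of 0.75 (FDR 0.113). CDC6, which loads that helicase, rose by 0.46 in LG and by 1.23 in HG, an interaction of 0.77 (FDR 0.132). Mitosis genes had a median of 0.04 (-0.16 to 0.22 over the alternatives). Of 25, 1 was positive and none negative at p under 0.05, against 7.3% and 4% of all genes. There were 4 positive without LG 1, and 1 positive and 3 negative with library weights. The difference between these lists was not tested.

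Linker and variant histone genes had a median of 0.37 with 13 of 15 positive, against 54.3% of all genes. At p under 0.05, 5 were positive and 1 negative, against 7.3% and 4% of all genes. The 5 became 1 without HGV 2, 2 without HG 1, 3 without LG 1, LGV 2 or HG 2, and 8 without HGV 3. H2AFX, the histone that is phosphorylated at DNA breaks, had 32.5 to 38.5 CPM in LG, 22.3 to 24.0 in LGV, 34.4 to 47.5 in HG and 41.6 to 49.3 in HGV, an interaction of 0.70 (FDR 0.132). H2AFY2, a macroH2A gene, had the one negative value at that p, -0.63 (FDR 0.132). The histone deacetylase genes themselves had a median of 0.15, and 1 of 10, HDAC10, had p under 0.05, against 11.3% of all genes.

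Chaperones of the endoplasmic reticulum fold secreted proteins, and most were lower in high glucose both without and with VPA. Their median glucose response was -1.70 without VPA, with 20 of 22 lower, against 14.3% of all genes. With VPA it was -1.51, with 19 lower, against 18.2%. The median interaction was 0.18, and for 20 the 95% interval lay within 1 log2 unit of 0, against 64.9% of all genes. At p under 0.05, 4 were positive and none negative, against 7.3% and 4% of all genes. There was 1 positive without LG 1, 9 without LG 3, and 2 positive and 2 negative without LG 2. HSPA5 (BiP) had 4247 to 5862 CPM in LG, 4523 to 6003 in LGV, 1137 to 1303 in HG and 949.9 to 1221 in HGV. Its interaction was -0.20 (95% interval -0.63 to 0.23). SDF2L1, which assists BiP, had 113, 72.7 and 79.2 CPM in LG, 72.7, 73.2 and 75.4 in LGV, 9.61, 13 and 13.4 in HG, and 20.3, 22.1 and 21.8 in HGV. VPA raised it by 0.83 in HG and its LG response was -0.26 (FDR 0.175), an interaction of 1.09 (FDR 0.0627). MANF, CALR and DNAJB11 had interactions of 0.18, 0.30 and 0.20.

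In the ATF4 stress response, 17 of 22 genes were positive, against 54.3% of all genes, with a median of 0.24 (0.07 to 0.26 over the alternatives). At p under 0.05, 4 were positive and 1 negative, against 7.3% and 4% of all genes. These became 7 and 1 without LGV 1, and 3 and 2 without LG 1 or HG 1. Without LG 1, HG 1 or HGV 2, or with library weights, 14 of 22 were positive. DDIT4, an inhibitor of mTORC1, fell by 0.80 with VPA in LG, and its HG response was -0.02 (FDR 0.898), an interaction of 0.77 (FDR 0.0889). CHAC1, which degrades glutathione, had 1.65 to 2.17 CPM in LG, 1.59 to 1.83 in LGV, 3.46 to 4.62 in HG and 6.23 to 9.37 in HGV. Its interaction was 1.06 (FDR 0.154).

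Complement activation genes, which the liver secretes for innate defence, mostly fell with VPA in both media. Of 26 listed, 18 were measured. Their median response was -0.54 in LG, with 10 lower and 2 higher, against 21.5% and 22.5% of all genes. In HG it was -0.54, with 11 lower and 2 higher, against 19.2% and 24.7% of all genes. The median interaction was -0.05. Of the 18, 1 had p under 0.05, against 11.3% of all genes. This was C1R, a protease of the classical pathway (-0.66, FDR 0.375), whose exons overlap those of C1RL. Without LG 3, 4 members had a negative value at that p, and without LG 1, HG 3, HGV 1 or HGV 3 none had. C3, the central component, had 5426 to 6101 CPM in LG, 3462 to 4793 in LGV, 9275 to 10108 in HG and 5835 to 7101 in HGV. It fell with VPA by 0.55 in LG and by 0.58 in HG, and the interaction was -0.03 (95% interval -0.43 to 0.38). MASP2, a protease of the lectin pathway whose exons overlap those of TARDBP, fell by 1.51 and 1.48, with an interaction of 0.03 (95% interval -0.60 to 0.66).

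Complement regulators had a median of -0.13, and 2 of 11 were negative at p under 0.05, against 4% of all genes. SERPING1, the inhibitor of C1, had 12.8, 15.5 and 15.3 CPM in LG, 24.6, 25.6 and 23.8 in LGV, 58.5, 65.5 and 67.6 in HG, and 73.7, 75.2 and 44.1 in HGV. VPA raised it by 0.76 in LG without overlap, whereas in HG the groups overlapped because of HGV 3 and the response was 0.01 (FDR 0.964). The interaction was -0.75 (95% interval -1.22 to -0.28, FDR 0.178), and -0.92 to -0.54 in the fits without 1 library (highest FDR 0.392). C4BPB, of the C4b-binding protein, fell by 0.93 in LG and by 1.35 in HG, an interaction of -0.42 (FDR 0.283).

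Coagulation factor genes had a median interaction of 0.01, and 1 of 16 had p under 0.05, against 11.3% of all genes. This was GGCX, the carboxylase that uses vitamin K, which rose by 0.30 in LG and 0.87 in HG, an interaction of 0.57 (FDR 0.116), and its exons overlap those of MAT2A. Anticoagulant and fibrinolysis genes had a median of 0.07. Cholesterol synthesis genes had a median of -0.04. MSMO1, a sterol demethylase, was the 1 of 20 with p under 0.05, against 11.3% of all genes. MSMO1 rose by 0.88 in LG, from 30.4 to 43.2 CPM to 56.8 to 71.6. Its HG response, between 101 to 125 and 118 to 134 CPM, was 0.13 (FDR 0.455). Its interaction was -0.75 (FDR 0.123).

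**Figure D4:**
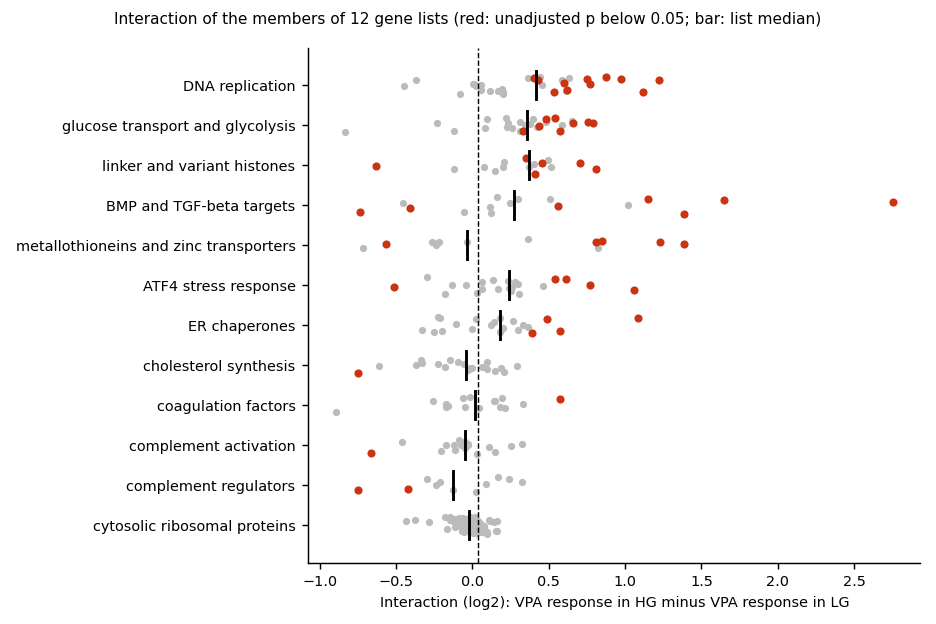
Interaction (log2) of each measured member of 12 gene lists, with a black bar at the list's median, red points for members with an unadjusted p below 0.05 and a dashed line at the median of all genes. The DNA replication, glycolysis and histone medians lie at 0.42, 0.36 and 0.37, and those of the complement, coagulation, cholesterol and ribosomal lists lie between -0.13 and 0.01.

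The liver genes with the smallest p were on both sides of 0. TTR (transthyretin) had an interaction of 0.74 and NR0B2, the bile acid-induced repressor SHP, one of 0.67 (FDR 0.114 for both). The negative ones were ORM1, an acute phase protein, at -0.74 (FDR 0.114) and FOXA1, a liver transcription factor, at -0.54 (FDR 0.172). ORM1 fell with VPA by 1.33 in LG and 2.06 in HG. NR0B2 fell by 0.92 in LG, and its HG response was -0.25 (FDR 0.0994). Over 24 hepatocyte genes the median was 0.12, with 3 positive and 2 negative at p under 0.05, against 7.3% and 4% of all genes.

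Of 17 measured fatty acid oxidation and PPARA target genes, 13 had a positive interaction, against 54.3% of all genes, with a median of 0.20. At p under 0.05, 4 were positive and 2 negative, against 7.3% and 4% of all genes, and 0 and 2 without HGV 2. CPT1A, which admits fatty acids to mitochondria, differed in sign from most of this list. CPT1A had 76.9 to 95.8 CPM in LG, 74.0 to 93.7 in LGV, 113 to 133 in HG and 56.4 to 86.1 in HGV. Its interaction was -0.77 (FDR 0.132), and its VPA response was -0.73 in HG, where the groups did not overlap, and 0.03 in LG (FDR 0.875). Gluconeogenesis and glycogen genes had a median of -0.0019, with 7 of 14 positive, against 54.3% of all genes. Of these, 4 were positive and none negative at p under 0.05, against 7.3% and 4% of all genes. With library size alone there were 2 positive and 1 negative. In this list PCK2, the mitochondrial PEP carboxykinase, fell by 1.51 in LG and had an HG response of -0.51 (FDR 0.0549). Its interaction was 1.00 (FDR 0.178).

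TXNIP, the glucose-induced inhibitor of thioredoxin, had 6.21 to 6.58 CPM in LG, 8.94 to 10.7 in LGV, 107, 389 and 277 in HG and 344 to 362 in HGV. Its glucose response was 5.34 without VPA and 5.16 with VPA, and the interaction was -0.18 (95% interval -0.98 to 0.62). HG 1 was the low library of its group. IGF2, a fetal growth factor gene, had an interaction of 0.04.

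Of 45 neuronal and synaptic genes listed, 29 were measured, and most of these rose with VPA in both media. Their median response was 1.96 in LG, with 24 of 29 higher, against 22.5% of all genes. In HG it was 1.99, with 23 higher, against 24.7%. The authors removed genes with few reads on average, so a gene near silent in the untreated groups could be kept only through its reads with VPA. The share that rose can therefore be raised by this filter, and the genes not measured cannot be judged. The median interaction of the 29 was 0.03. At p under 0.05, 7 were positive and 1 negative, against 7.3% and 4% of all genes. With library size alone these were 3 and 3, and without LG 1 or HG 1 they were 2 and 3. NDRG4 rose from 3.07 to 3.78 CPM to 41.5 to 51.8 CPM in LG and from 2.60 to 2.82 CPM to 70 to 73.1 CPM in HG, an interaction of 1.01 (FDR 0.06). The negative one, NCAM1, had no reads in LG, so no fold is given, and its LGV libraries had 1.95 to 2.46 CPM. Cytosolic ribosomal protein genes had a median of -0.02, with none of 78 at p under 0.05, against 11.3% of all genes. For 77 the 95% interval lay within 1 log2 unit of 0, against 64.9% of all genes.

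Over the 38 lists together, 689 genes were measured and 405 had a positive interaction, beside 54.3% of all genes. With library size alone 354 were positive, beside 48% of all genes. None had an FDR of 0.05 or less in edgeR's quasi-likelihood test or in voom. At p under 0.05, 89 were positive and 33 negative, against 7.3% and 4% of all genes. With library size alone these were 69 and 47, against 825 and 875 of all 16389 genes. DESeq2's Wald test called 18, the likelihood ratio test 24 and voom with library weights 58, against 162, 202 and 907 of all genes. Without LG 2, the quasi-likelihood test called 20, against 220 of all genes. The lists and their members were chosen with earlier results of these data known, so these shares only describe them.

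**Figure D5:**
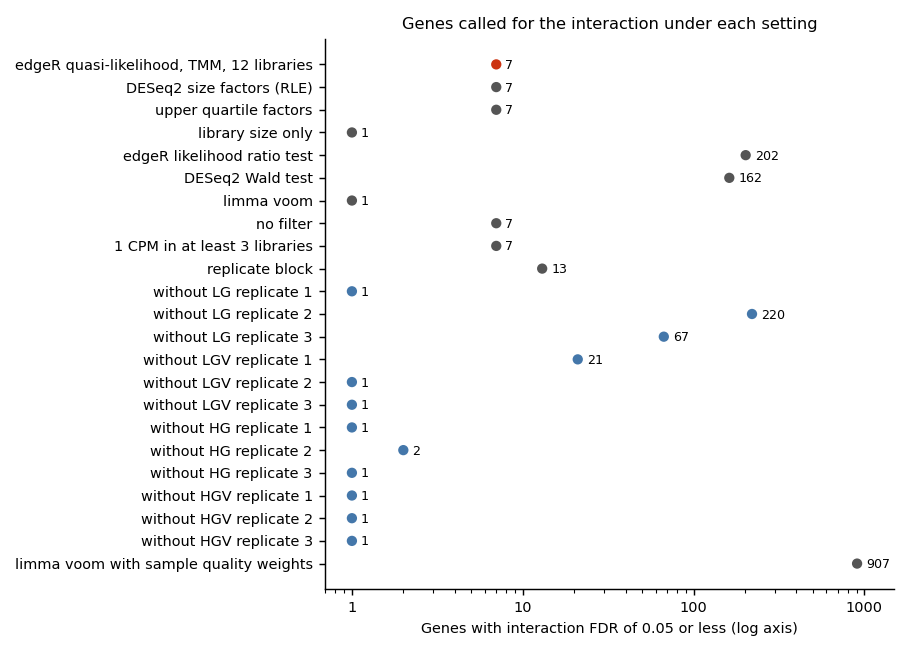
Number of genes with an interaction FDR of 0.05 or less under each setting, on a log axis: red for the 12-library quasi-likelihood fit, grey for other tests, scalings and filters, blue for fits without 1 library. The counts run from 1 to 907.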

How the data were processed

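RNA of 12 HepG2 libraries was sequenced as 50 nt single-end reads. Per the labels, demultiplexing used bcl2fastq 2.17.1.14. After quality trimming, the authors used STAR for alignment (GRCh37) and featureCounts for read counts per Ensembl gene, and deposited raw counts of 16389 genes without normalization. They removed genes averaging below 10 reads, and no gene in the table did. The library kit was directional, but the strand setting of the counting is not given in the sources used here. Whether reads of genes that overlap on opposite strands were separated is therefore not known.

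Counts were fitted over all 12 libraries with edgeR 4.0.16 (R 4.3.3; TMM factors, quasi-likelihood F test, Benjamini-Hochberg FDR of 0.05 or less), and the interaction and the 4 simple responses were contrasts of this fit. Standard errors combined the Wald error with the quasi-dispersion, and 95% intervals used the t distribution. The script was tested on simulated data. CPM used TMM library sizes, and 3 reads were taken as the floor, for counting error only. No pair of libraries of the same group agreed within sampling noise, and pairs across groups were not checked.

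Named were genes past the threshold, the 30 smallest p, genes the study names, per list the 3 smallest p and the most abundant, genes with opposite VPA responses, and 5 per direction with the largest interaction. Some genes that meet this rule are left out of the text. Other metallothioneins and NCAM1, HDAC10 and the marker genes were named after their values were seen. The members and the 38 lists were chosen with earlier results of these data known, and no list was tested as a set. Alternatives were DESeq2 1.42.0, edgeR's likelihood ratio test, limma 3.58.1 voom with and without library weights, other scaling factors, no filter or 1 CPM in at least 3 libraries, the linear scale, the replicate number as a block, other FDR thresholds, and each library left out in turn. Positions and overlaps came from GENCODE on GRCh37, which is not the Ensembl annotation used for counting. Some of the overlapping genes may therefore not have been counted. Promoters came from RefSeq on GRCh38.p14.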

Additional observations from a re-analysis of the deposited data

Results flagged for a closer look

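The 7 genes past the FDR threshold are those whose response to VPA differed between the media by the test of the difference itself, the interaction term over 12 libraries. The log2 interaction was -2.82 for RNF125, 1.01 for WFS1, 2.52 for C2orf81, 1.37 for SH2D5, 1.07 for CDK2AP2, -2.23 for TTBK1 and -1.06 for ANKRD65. RNF125 passed in all 12 fits without 1 library and each of the others in 3 of 12, with highest FDRs from 0.159 to 0.19. Groups of 3 libraries are too small for an outlier rule based on the range.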

How the results depend on the processing

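The number of genes past the threshold for the interaction was 7 with DESeq2's size factors, upper quartile factors, no filter or the 1 CPM filter. It was 1 with library size alone, 1 with limma voom, 1 at an FDR of 0.01, 95 at an FDR of 0.10, 162 with DESeq2's Wald test, 202 with the likelihood ratio test and 907 with voom and library weights, whose lowest weights were 0.351 (HGV 2) and 0.427 (LG 2). Without 1 library it ranged from 1 to 220: 220 without LG 2, 67 without LG 3, 21 without LGV 1, 2 without HG 2 and 1 without each of the others. The cause was not tested. The 30 genes with the smallest p kept their sign and an unadjusted p under 0.05 in every alternative. They were chosen by p in the same libraries that the alternatives use, so this is not independent support. Of the 30, 1 had an FDR of 0.05 or less with limma voom and 30 with the likelihood ratio test. With the replicate block 13 genes passed. The labels share replicate numbers across groups but do not say that a number marks a shared culture, and the deviations of the 18 same-numbered pairs had a mean correlation of 0.0334 (-0.201 to 0.295), with 5 of 12 libraries closest to their own number. The block is therefore given here only, and it moved no count of the simple responses by over 1.5 times. For the glucose response without VPA, the count of 4236 ranged from 2413 to 5220 without 1 library, with 2413 without LG 2, 2709 without LG 1 and 2658 without HG 3. Signs turned for genes with an interaction near 0. The interaction of C3 was 0.059 with library weights and -0.12 to 0.10 without 1 library. The interaction of MASP2 was -0.013 with library size, -0.037 with voom, -0.25 to 0.27 without 1 library and -3.77 CPM on the linear scale. The interaction of IGF2 was -0.0093 with library size, -0.060 to 0.13 without 1 library and -1078 CPM on the linear scale. The interaction of TXNIP was 0.018 with voom, -0.59 to 0.22 without 1 library and 89.2 CPM on the linear scale. On that scale the interaction of HK1 was -12.2, DNAJB11 -133 and C4BPB 7.12 CPM. At this depth and spread the median standard error of 0.24 limits what can be called.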
